A study of Mus musculus with 310 samples.

Results

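Sprr1a, Krtdap, Calm4 and Hrnr are 4 genes of late keratinocyte differentiation, chosen by name from the 14068 genes of a table of 310 single cells. The cells came from tail epidermis of female mice of mixed CBA and C57BL/6 background that carried Lrig1-EGFP-ires-CreERT2 and Rosa26-fl/STOP/fl-tdTomato, and the tail skin was treated topically with hydroxytamoxifen a single time before wounding. Cre recombinase is driven from the Lrig1 locus, so the sort for tomato fluorescence took cells that had expressed Lrig1, a stem cell gene of the hair follicle's junctional zone, and their progeny, and no unlabelled cell. The labels form the groups 38w (145 cells, replicates RepI and RepL) and 38wUW (165 cells, RepM and RepN), all at a time of 38 weeks, and the study set repaired against age control skin. The labels neither spell out UW nor name the wounded group, so differences are given as 38w against 38wUW and their direction towards repaired skin is unknown.

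When a keratinocyte leaves the basal layer it stops dividing, changes its keratins and finally replaces its membrane with the cornified envelope, a shell of proteins cross-linked by transglutaminases. Sprr1a encodes a small proline-rich protein that is built into this shell. Krtdap encodes a small protein secreted by suprabasal keratinocytes, and Calm4 encodes a calmodulin-like calcium-binding protein of differentiating epidermis. Hrnr encodes hornerin, a large repetitive protein of the granular layer related to filaggrin.

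In GRCm38, Sprr1a lies on the minus strand of chromosome 3 (92483952 to 92485895) and Hrnr on the plus strand of the same chromosome (93319749 to 93333570), both within the epidermal differentiation complex, the cluster that also holds filaggrin, loricrin and involucrin. Krtdap lies on the plus strand of chromosome 7 (30787896 to 30791097), 6833 bases from its nearest coding gene Dmkn, another secreted suprabasal protein. Calm4 lies on the plus strand of chromosome 13 (3837757 to 3838673), 15500 bases from Calm5 and 33441 from Calml3. All are protein-coding, and no other coding gene overlaps them. Of the 31-base words in their transcripts, none of Sprr1a, Krtdap or Hrnr occurred in another gene, whereas 98 of 887 words of Calm4 occurred in Calm5, so reads can be divided between this pair and Calm4 values are less certain. Calm4 was more than 0.05 from a whole count in 21 cells and the other members in 0.

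The sequences upstream of Sprr1a, Krtdap and Calm4 are shown because Krtdap and Calm4 went together from cell to cell and Sprr1a was found in a subset of their cells. They are RefSeq sequence of GRCm38.p6, 5′ to 3′ on the gene's strand, and end before the most upstream annotated transcript start: chr3:92485896-92486131 (minus strand), chr7:30787655-30787895 (plus strand) and chr13:3837507-3837756 (plus strand). Capitals mark TGANTCA, the palindromic motif of AP-1, and TATAAA, the TATA box, searched on both strands. These motifs do not overlap here.

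Sprr1a: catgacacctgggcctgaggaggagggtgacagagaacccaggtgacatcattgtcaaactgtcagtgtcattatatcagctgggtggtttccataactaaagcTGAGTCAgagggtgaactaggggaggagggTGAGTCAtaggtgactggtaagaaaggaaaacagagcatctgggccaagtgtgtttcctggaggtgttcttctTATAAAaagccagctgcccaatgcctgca
Krtdap: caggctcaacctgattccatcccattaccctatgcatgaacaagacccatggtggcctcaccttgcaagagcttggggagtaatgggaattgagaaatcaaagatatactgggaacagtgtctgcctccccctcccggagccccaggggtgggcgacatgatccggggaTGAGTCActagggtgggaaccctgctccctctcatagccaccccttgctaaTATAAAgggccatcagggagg
Calm4: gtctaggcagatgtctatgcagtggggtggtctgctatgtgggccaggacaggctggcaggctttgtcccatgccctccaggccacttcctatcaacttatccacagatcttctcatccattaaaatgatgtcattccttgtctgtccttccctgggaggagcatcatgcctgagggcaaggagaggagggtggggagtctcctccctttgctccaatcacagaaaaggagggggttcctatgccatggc

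Within 250 bases of the RefSeq start, Sprr1a held 2 AP-1 motifs and a TATA box, Krtdap held 1 AP-1 motif and a TATA box, and Hrnr held a TATA box only. Calm4 held neither. Of all 32851 windows of that length in the table, 6.75% held the AP-1 motif and 12.4% the TATA box on either strand. A match is a description of the letters and not of binding.

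Cells had 11711 to 721564 reads (median 61294), and the sums per replicate were 5472070 to 12946742 reads. Plate C114, which holds 53 of the 70 cells of RepI, stood apart from the other 4 plates. The median share of ribosomal protein genes among a cell's reads was 31.8% there and 3.604% to 6.80% elsewhere. The other 17 cells of RepI were on plate C118, where mitochondrial genes took 33.8%, against 2.77% on C114. The group differences of Sprr1a, Krtdap and Calm4 in reads and in shares of cells were therefore also computed without C114. Krt14 and Krt5, keratins of the basal layer, had reads in 90.0% and 74.5% of cells. Summed over their lists, markers of other cells were low: 7.96 to 15.1 CPM (counts per 1e+06 reads) for 3 melanocyte genes, 0.514 to 1.72 for Ptprc (the only immune gene of the list in the table), 8.42 to 62.7 for 5 fibroblast genes and 0 to 1.70 for the Merkel gene Isl1. Pecam1, an endothelial gene, had 1264 to 8773 CPM per replicate and reads in all 310 cells, while the other endothelial gene in the table reached at most 0.411 CPM, and the part of such reads in the results was not tested. On C114, 11 wells are named by 2 cells each, and the profiles of these pairs had a median r of 0.635, next to 0.626 for other pairs on the plate, so all were kept as separate cells.

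The members were found in very different shares of cells. Krtdap had reads in 250 of 310 cells (80.6%), Calm4 in 187 (60.3%), Sprr1a in 82 (26.5%) and Hrnr in 7 (2.26%). Among cells with a read, the median level was 11.1 reads per 10000 for Krtdap, 4.52 for Calm4, 3.65 for Hrnr and 2.93 for Sprr1a. Sprr1a was the most uneven of the 3 widespread members. Its 10 highest cells held 88.2% of its 47875 reads, and 3 cells of C114 held over 50% of them, with 13381 in the highest. For Krtdap and Calm4, 11 cells made up 50% of the reads, and the 10 highest held 47.9% and 48.0%. None of the 3 went with depth, since their correlations with a cell's total reads were -0.03 (Sprr1a), -0.02 (Krtdap) and -0.04 (Calm4; Spearman's rho, 310 cells, centred on plate means).

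Per length of transcript, Krtdap was the most abundant member in each replicate and Hrnr the least. Krtdap stood at 10992 CPM per kilobase of exon in RepI and 1056 in RepL (38w), and at 1770 in RepM and 2175 in RepN (38wUW). Sprr1a stood at 3946, 54.3, 1390 and 1012, and Calm4 at 2030, 228, 692 and 332. Sprr1a was thus above Calm4 in 3 replicates and below it in RepL. Hrnr was at 0 in RepI and RepL, 3.01 in RepM and 0.311 in RepN.

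To ask whether these genes differed between the groups, reads were summed per replicate. For Sprr1a, the sums were 3181 CPM in RepI and 43.8 in RepL (38w), and 1121 in RepM and 815 in RepN (38wUW). The 38w replicates thus lay above and below both 38wUW replicates. Within RepI, C114 had 3863 CPM and C118 had 2.33, from 4 reads in a single cell. The 38w mean was 1612 ± 2218 and the 38wUW mean 968 ± 216 (SD, n = 2 each), and the log2 fold change was 0.999 (SE 1.37, edgeR quasi-likelihood test with Benjamini-Hochberg adjustment, adjusted p = 0.848). Without RepI it was -4.24 (edgeR adjusted p = 0.000961), without RepL 2.05 (0.0244) and without C114 -5.14 (0.817), so the direction of Sprr1a followed the 38w library that was kept. In fits with 1 replicate in a group, that replicate is assumed to vary like the other group.

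The 38w replicates had 7464 CPM (RepI) and 717 CPM (RepL) of Krtdap, and the 38wUW replicates had 1202 (RepM) and 1477 (RepN). Again RepI was highest and RepL lowest. Its 2 plates in RepI were both above the 38wUW replicates, at 8566 CPM on C114 and 2335 on C118. The means were 4090 ± 4770 in 38w and 1340 ± 194 in 38wUW (SD, n = 2 each), which gave 1.87 on the log2 scale (SE 1.29, edgeR adjusted p = 0.707). It was 2.82 without RepL (edgeR adjusted p = 0.000942), -0.67 without RepI (0.842) and 0.46 without C114 (0.997).

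Calm4 followed the order of Krtdap at the extremes, since RepI had 1862 CPM and RepL 209, while RepM had 634 and RepN 304. C114 had 2227 CPM and C118 had 161. The means were 1035 ± 1169 and 469 ± 233 (SD, n = 2 each), which gave 1.40 on the log2 scale (SE 1.13, edgeR adjusted p = 0.746). It was 2.32 without RepL (edgeR adjusted p = 0.00888), -0.94 without RepI (0.717) and -1.10 without C114 (0.994).

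Hrnr was the only member whose summed reads did not overlap between groups. It had 0 reads in RepI and RepL, 184 in RepM (33.6 CPM) and 45 in RepN (3.48 CPM). With the 0 of 38w set to a floor of 3 reads over the group, Hrnr was 64.3-fold lower in 38w, counting error only. This value takes each read as independent, although 7 cells held all the reads, so it is no lower limit of the difference. It was 53.3-fold without the 38wUW cell whose name ends in MBULK, and 19.8-fold without the cell with the most reads. Both were left out after seeing the data. In edgeR's test Hrnr had an adjusted p of 0.461 (unadjusted 0.000353). DESeq2 called it (adjusted p = 0.00129). As 38w had 0 reads, Hrnr entered each test only through 38wUW, where 1 cell held 159 of its 229 reads. Leaving out RepI or RepL leaves 1 replicate in 38w, and the fitted log2 fold changes there were -10.2 and -10.3. Without the 2 MBULK cells, or without all 15 cells with an unexplained name suffix, Hrnr fell below the count filter and was not tested.

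**Figure D1:**
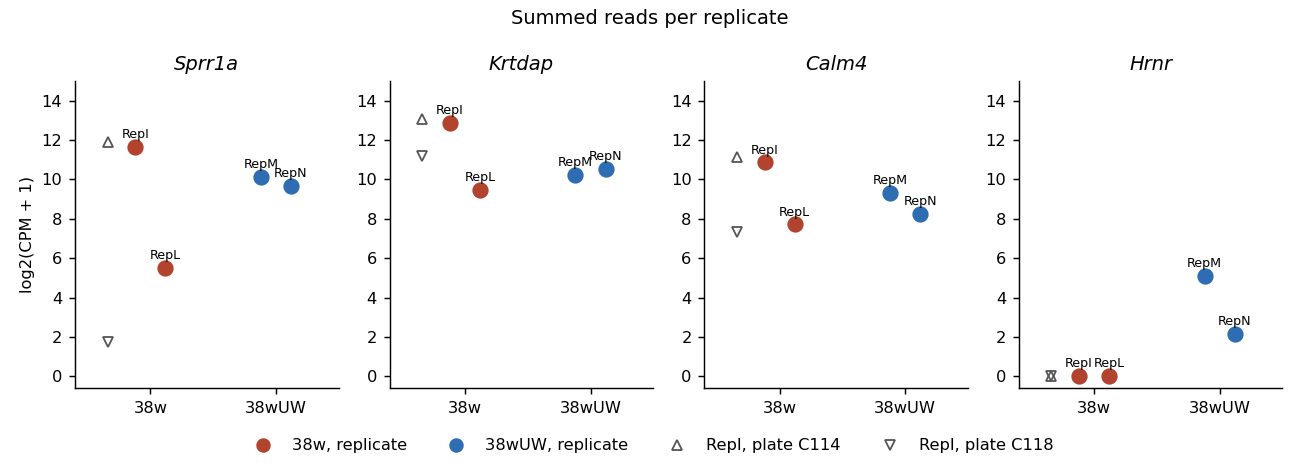
Level of each gene in the 4 replicates, as log2(CPM + 1) on the vertical axis (filled circles; red, 38w; blue, 38wUW), with the 2 plates of RepI as open triangles. RepI and RepL lie on either side of the 38wUW replicates for Sprr1a, Krtdap and Calm4, while Hrnr is at 0 in both 38w replicates.

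Over all 11760 genes tested, edgeR called 0 (0%) with its adjusted p below 0.05 (949 were below 0.05 before adjustment), so that 0 of 4 members called is the background. Both 38w replicates were below both 38wUW replicates in 26.2% of genes and above them in 12.6%, and 1 of 4 members (Hrnr) was below. DESeq2 called 0.284% of 14067 genes lower in 38w, Hrnr among them. Without RepL, edgeR called 6.35% of genes higher and 3.05% lower in 38w. There Sprr1a, Krtdap and Calm4 were among the higher and Hrnr among the lower. Without RepI it called 0.662% higher and 0.719% lower, with Sprr1a and Hrnr among the lower. The median log2 fold change of all genes was 0.12, against which the members' values can be read.

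**Figure D2:**
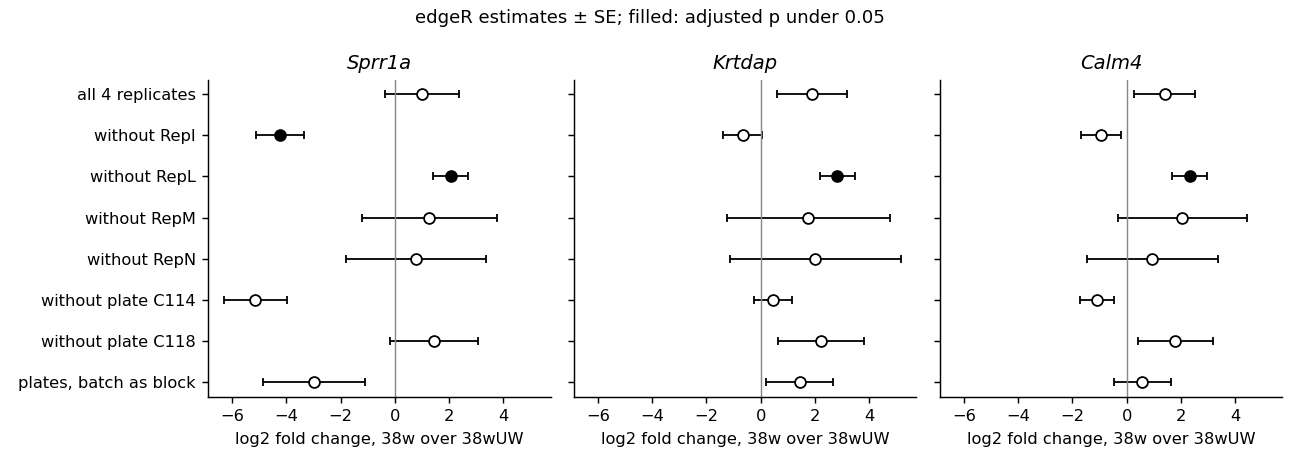
edgeR log2 fold changes of Sprr1a, Krtdap and Calm4 (38w over 38wUW, horizontal axis) with bars of 1 SE, for all replicates and for 7 alternatives. Sprr1a ranges from -5.14 without C114 to 2.05 without RepL, and filled points mark an adjusted p under 0.05.

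Counting cells in place of reads gave each cell the same weight. After thinning each cell to 20000 reads, which 277 cells reached, Calm4 was found in 75.0% of RepI cells and 55.7% of RepL cells, against 51.6% in RepM and 37.3% in RepN. Both 38w replicates were higher, by a mean of 20.9 percentage points (exact two-sided permutation test over replicates, p = 0.333, the smallest that the 6 splits allow). How many of all genes do not overlap in shares of cells was not computed. This result and the shares below therefore have no background beside them. On C118 alone the Calm4 share was 52.9% (Wilson 95% interval 30.96 to 73.8), next to 82.4% on C114 (69.7 to 90.4), and without C114 the difference was 9.88 points. Unthinned, the shares were 82.9%, 64.0%, 51.2% and 47.0%, and the groups overlapped when at least 3 reads were asked for. Thus the 38w replicates were both higher in the share of Calm4 cells while they bracketed 38wUW in Calm4 reads.

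Krtdap was found in 88.2% of thinned RepI cells and 77.1% of RepL cells, against 71.9% in RepM and 74.7% in RepN. The groups did not overlap, and the difference was 9.42 points (exact permutation p = 0.333), or 3.54 without C114. Thinned to 10000 reads, or counting cells with at least 3 reads, the groups overlapped. Sprr1a was found in 30.9% of RepI cells and 10% of RepL cells, and 35.9% in RepM and 18.7% in RepN, so its groups overlapped (difference -6.86 points, exact permutation p = 0.667, and -19.4 without C114, exact permutation p = 0.333). By plate of RepI it was found in 39.2% of C114 cells (Wilson 95% interval 27.0 to 52.9) and 5.88% of C118 cells (1.05 to 27.0). Unthinned shares of Sprr1a were 37.1%, 13.3%, 32.9% and 22.9%.

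Hrnr reads were found in 0 of 70 cells of RepI and 0 of 75 of RepL, which allow shares of up to 4.29% and 4%. They were found in 5 of 82 cells of RepM (6.10%, Wilson 95% interval 2.63 to 13.5) and 2 of 83 of RepN (2.41%, 0.663 to 8.37), so the intervals of 38wUW reach below these limits. After thinning the difference was -3.68 points (exact permutation p = 0.333). The 7 cells were unlike each other. A cell of C128 held 159 of the 229 reads, with 51 reads of Flg, 654 of the suprabasal keratin Krt10, 121 of the proliferation gene Mki67 and 0 of Sprr1a. The MBULK sample of C129 came next with 40 reads, beside 1570 of the repetin gene Rptn, 1938 of Sprr1a and 448 of Krt79, a keratin of the upper follicle and its ducts. The third had 16 reads, with 229 of Flg and 1853 of Sprr1a, and the other 4 had 1 to 6. All 7 held Krtdap (111 to 608 reads) and Calm4 (56 to 162 reads), and 6 held Sprr1a. The study also made libraries from small pools of cells, and whether an MBULK sample is a single cell is not stated.

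Across cells the members formed an ordered set. Among the 277 thinned cells, 58 had all of Sprr1a, Krtdap and Calm4, 89 had Krtdap and Calm4 without Sprr1a, 63 had Krtdap alone and 56 had none. Of 65 cells with Sprr1a, 64 also had Krtdap (98.5%) and 58 had Calm4 (89.2%). Of 212 cells without Sprr1a, 71.7% had Krtdap and 43.9% had Calm4. Of 151 cells with Calm4, 147 had Krtdap (97.4%). Sprr1a with neither of the others was seen in 1 cell and Calm4 without Krtdap in 4. Cells with Krtdap and Calm4 but no Sprr1a made up 47.1% of RepI and 44.3% of RepL, whereas they made up 17.2% of RepM and 20% of RepN. Both plates of RepI were at 47.1% (24 of 51 cells on C114 and 8 of 17 on C118), the second from few cells. Each plate belongs to a single group, so plate and group cannot be told apart here. Cells with all 3 genes made up 27.9% of RepI, 7.14% of RepL, 32.8% of RepM and 17.3% of RepN, which overlapped. These combinations were picked after their values were seen and were not tested.

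In levels, Krtdap and Calm4 went together more closely than either went with Sprr1a. Krtdap and Calm4 correlated at rho = 0.77 over 310 cells (levels centred on plate means), and within plates at 0.81 (C114, 53 cells), 0.78 (C118, 17 cells), 0.75 (C119, 75 cells), 0.82 (C128, 82 cells) and 0.69 (C129, 83 cells). Among the 9245 other genes found in at least 10% of cells, Calm4 was the gene most like Krtdap, and Krtdap the gene most like Calm4. Sprr1a correlated with Krtdap at 0.37 and with Calm4 at 0.44. These values varied between plates, with 0.66 and 0.73 on C128, 0.52 and 0.53 on C129, 0.23 and 0.41 on C114, 0.24 and 0.13 on C119 and 0.10 and 0.05 on C118, where 1 cell had Sprr1a reads. Cells of a plate share library preparation and depth, so these correlations are descriptions.

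**Figure D3:**
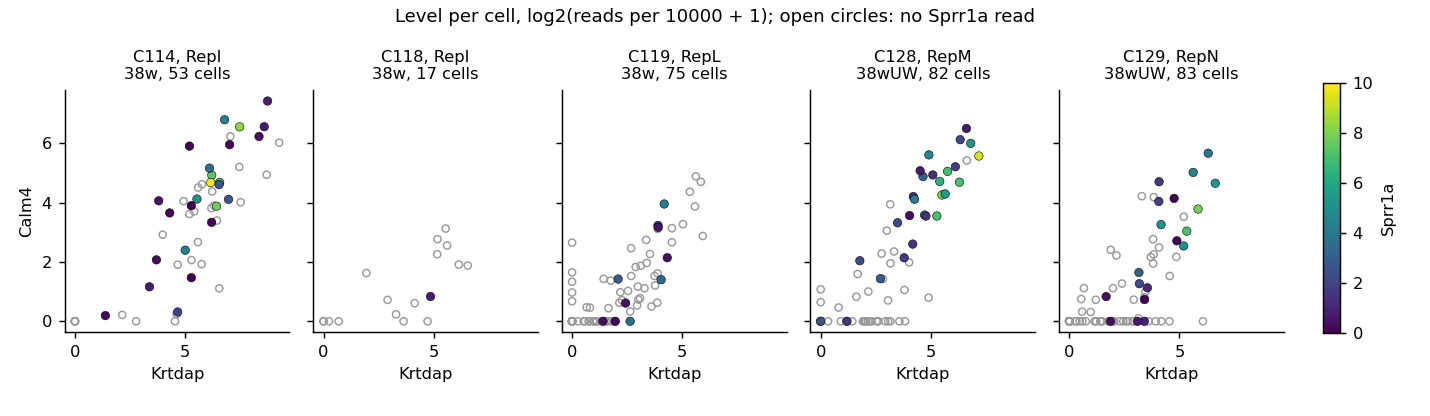
Each point is a cell, with Krtdap on the horizontal and Calm4 on the vertical axis, both as log2(reads per 10000 + 1), in a panel per plate. Colour gives Sprr1a on the same scale and open circles have no Sprr1a read. Krtdap and Calm4 rise together on each plate, and cells with Sprr1a reads are a subset that is largest on C114 (25 cells) and C128 (27 cells).

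The genes most like Sprr1a were others than those most like Krtdap and Calm4. For Sprr1a they were Ly6g6c (rho = 0.84), Teddm3 (0.83), Klk7 (0.83), a protease that acts on the junctions of cornified cells, Cst6 (0.80), a protease inhibitor of the stratum corneum, and Cldn4 (0.80), a tight junction claudin. For Krtdap, after Calm4, they were Gltp, the glycolipid transfer protein (0.71), Ly6d (0.67), Fam25c (0.65) and Dsg1a, a desmosomal cadherin (0.64). Calm4 had the same 4 genes after Krtdap, with Gltp at 0.70, Fam25c at 0.67, Ly6d at 0.66 and Dsg1a at 0.64. Without centring on plates, Sprr1a and Ly6g6c correlated at 0.75 and Krtdap and Calm4 at 0.80.

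Keratins told the members apart. Sprr1a correlated with Krt79 (0.65), a keratin of the upper follicle, and with Krt17 (0.63), a follicle keratin. Its values were lower with Krt10 (0.29) and Krt1 (0.19) of the interfollicular suprabasal layers, and -0.03 with Krt2. Krtdap correlated with Krt10 at 0.60, Krt1 at 0.29, Krt2 at 0.27, Krt79 at 0.32 and Krt17 at 0.26. Calm4 had 0.59, 0.35, 0.31, 0.38 and 0.26 with the same 5 genes. Aside from C118, where a single cell had Sprr1a reads, Sprr1a had a higher value with Krt79 (0.47 to 0.68) than with Krt10 (0.22 to 0.58) on each plate. On all 5 plates Krtdap had a higher value with Krt10 (0.51 to 0.70) than with Krt79 (-0.30 to 0.51), as did Calm4 (0.55 to 0.74 with Krt10 and -0.30 to 0.49 with Krt79). Mt4, a metallothionein of differentiated epidermis, had -0.13 with Sprr1a, 0.41 with Krtdap and 0.40 with Calm4. The basal keratins Krt5 and Krt15 were negative with all 3, at -0.38 and -0.30 for Sprr1a, -0.31 and -0.42 for Krtdap and -0.42 and -0.52 for Calm4, while Krt14 was near 0 (-0.10, -0.04 and -0.04). Values of the remaining marker genes with Sprr1a, Krtdap and Calm4 were -0.30, -0.24 and -0.31 for Postn (bulge), 0.23, -0.06 and -0.13 for Lrig1, -0.18, -0.07 and -0.04 for Scd1 (sebocytes), 0.11, 0.12 and 0.00 for Krt6a, and -0.35, -0.18 and -0.14 for Mki67.

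**Figure D4:**
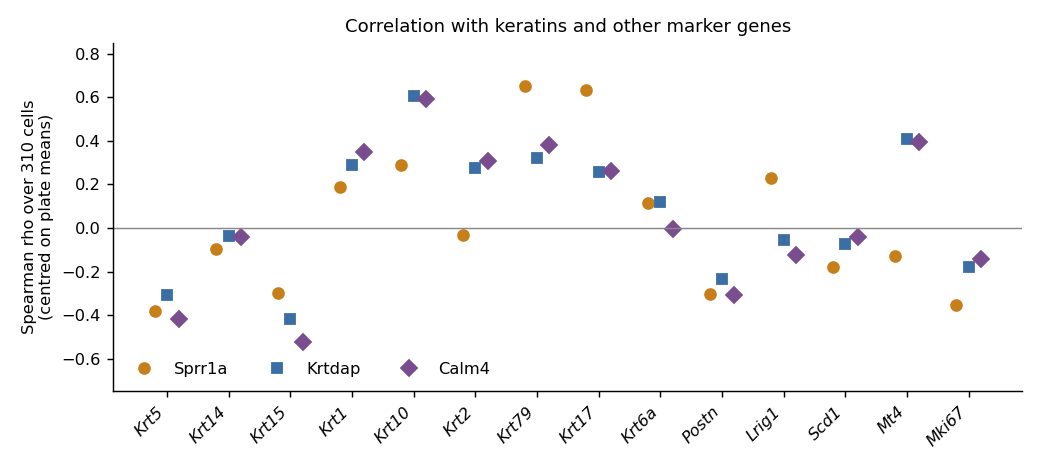
Spearman's rho over 310 cells (vertical axis) between Sprr1a, Krtdap or Calm4 and 14 marker genes (horizontal axis). Sprr1a is highest with Krt79 and Krt17 (0.65 and 0.63), Krtdap and Calm4 with Krt10 (0.60 and 0.59), and all 3 are below 0 with Krt5 and Krt15.

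To see which cells carried the members, cells were clustered without them and without the genes of the envelope, S100, calmodulin and secreted suprabasal lists. Of 7 clusters, 4 could be named from their markers. Sprr1a was concentrated in the infundibular duct differentiated-like cluster (68 cells, 9 of 9 markers raised, Klk10 leading), which held 97.0% of its reads, at a mean of 57.2 reads per 10000 and in 76.5% of cells. A few cells carried this mean, since the median was 2.40 (SD over cells 149). In each replicate this cluster held 93.3% to 99.5% of the Sprr1a reads, though it made up 8.57% of RepI, 9.33% of RepL, 36.6% of RepM and 30.1% of RepN cells. The mean of Sprr1a in these cells was 293 in RepI (6 cells), 6.57 in RepL (7 cells), 52.1 in RepM (30 cells) and 21.1 in RepN (25 cells). The medians were 197, 6.51, 3.203 and 0.313. Of the 6 cells of RepI, 5 were from C114 (112 to 929 reads per 10000) and the 1 from C118 was at 0.786, so the high value of RepI was that of C114. In the unnamed cluster led by Mt4 (45 cells, 44 of them from C114), Sprr1a was at 2.24 reads per 10000 in 40% of cells. Elsewhere it was at 0 to 0.204. Sebocyte-like cells should lack it, and 2.22% of 45 cells had a read there. Their median depth was 38422 reads, against 63055 in the infundibular duct cluster. That cluster also held suprabasal keratins, with Krt10 at 73.0, Krt1 at 7.30 and Krt2 at 10.6 reads per 10000. An unnamed cluster led by Krt2 had 78.2, 3.12 and 65.8 of these. Klk7, a naming marker of the infundibular duct cluster, was among the genes most like Sprr1a.

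Krtdap and Calm4 were spread more widely. Krtdap was at 92.4 reads per 10000 in the C114 cluster led by Mt4, 34.7 in the infundibular duct cluster and 22.2 in an unnamed cluster led by Krt2 (50 cells, 34 of them from C119). These clusters had Krtdap reads in 91.1%, 97.1% and 100% of cells. The order of the last 2 does not hold over replicates, since Krtdap was at 87.7, 9.02, 38.7 and 24.3 in RepI, RepL, RepM and RepN in the infundibular duct cluster and at 53.2, 14.9, 16.2 and 19.6 in the Krt2 cluster. Calm4 had 23.7, 17.0 and 4.79 reads per 10000 in the same 3 clusters, with 31.02, 4.39, 23.1 and 9.91 by replicate in the infundibular duct cluster and 6.36, 4.85, 1.23 and 3.38 in the Krt2 cluster. The C114 cluster cannot be told apart from its plate.

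The lowest levels were in the 4 remaining clusters. Krtdap was at 5.05 reads per 10000 in the cluster led by the mitosis gene Cenpf (15 cells), 4.35 in basal transition-like cells (42 cells), 4.01 in bulge-like cells (45 cells) and 2.96 in sebocyte-like cells (45 cells), neighbouring values whose replicates overlapped. Calm4 was at 1.42 in sebocyte-like, 1.13 in Cenpf, 0.611 in basal transition-like and 0.0945 in bulge-like cells. In bulge-like cells the 2 genes parted, with Krtdap in 73.3% of cells and Calm4 in 13.3%. Hrnr reads were in 6 of the 68 infundibular duct cells and in 1 of the 15 Cenpf cells, which held 69.4% of them.

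**Figure D5:**
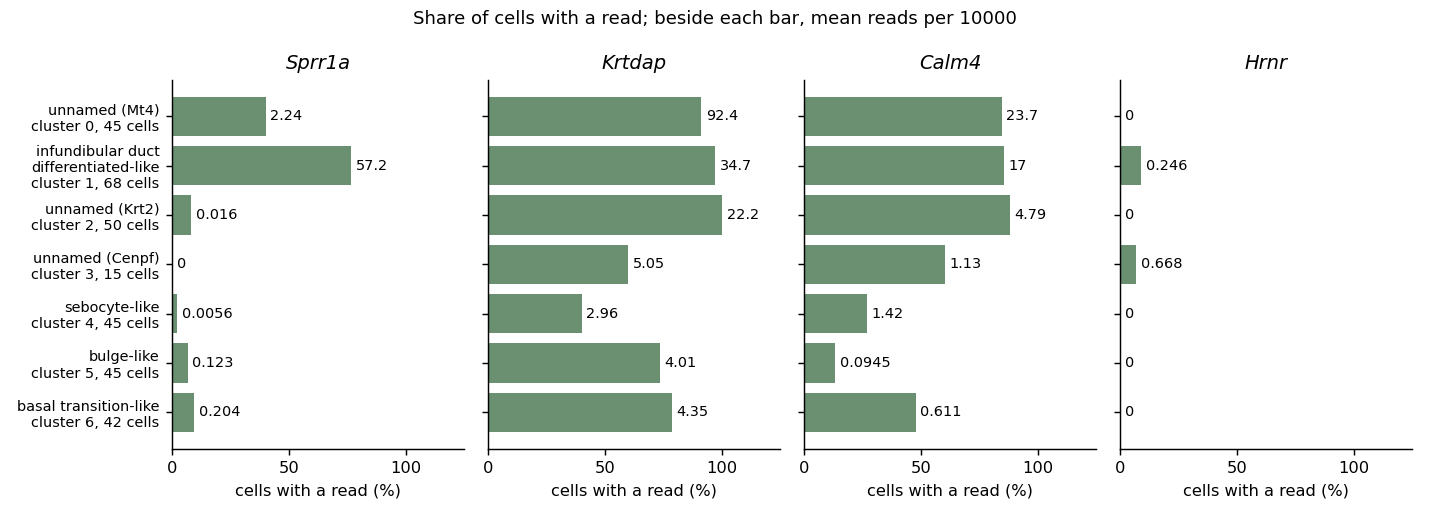
Bars give the percentage of cells with a read of each gene in 7 clusters, and the number beside a bar is the mean level in reads per 10000. Sprr1a stands out in the infundibular duct differentiated-like cluster (76.5% of cells, 57.2 reads per 10000), whereas Krtdap and Calm4 are also high in the unnamed clusters led by Mt4 and Krt2.

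With genes centred per plate, cells of C114 no longer formed their own cluster. An interfollicular differentiated-like cluster appeared (28 cells from all 5 plates, 9 of them from C114). In it Krtdap was at 131 reads per 10000, Calm4 at 33.3 and Sprr1a at 0.302. The infundibular duct differentiated-like cluster then held 54 cells, with Sprr1a at 73.0, Krtdap at 40.3 and Calm4 at 20.04. At Leiden resolution 1.5, without centring, an interfollicular differentiated-like cluster of 8 cells, all from C114, had Krtdap at 332 and Calm4 at 69.6. Another such cluster of 35 cells, 1 of them from C114, had 35.6 and 12.3. Across settings, the borders of the clusters moved. When the ribosomal protein genes Rps3a1 and Rpl36al were kept among the variable genes, an alternative added after seeing the data, the infundibular duct cells split into 40 cells with Sprr1a at 97.3 and 35 cells with Sprr1a at 0.921.

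The other genes of these pathways were compared in the same fit, by lists, with 0 called in each. Of 51 genes on the cornified envelope list, 18 were in the table and 17 were tested. Their median log2 fold change was -0.33 (all genes 0.12), and both 38w replicates were below both 38wUW replicates for 5 of the 17 and above for 1, Csta1, beside 26.2% below and 12.6% above over all genes, so the share below is near that of all genes. The 5, named after their values were seen, were Hrnr, its nearest coding gene Flg, and Lor, Ivl and Ppl. Flg was at 7.81 and 3.10 CPM in 38w and 53.7 and 15.99 in 38wUW, and Ivl at 10.5 and 2.24 against 39.5 and 42.9. By level the leading genes were Ppl, the desmosomal periplakin (log2 fold change -0.15), Rptn (-1.89) and Sprr2a2 (0.94), of which the last 2, like Sprr1a, overlapped between groups. Among 17 genes of envelope enzymes and their inhibitors (median -0.70, 3 below and 0 above), Cst6, one of the genes most like Sprr1a, had 39694 and 2543 CPM in 38w and 15749 and 3479 in 38wUW (log2 fold change 1.39, edgeR adjusted p = 0.826). Like Sprr1a, Cst6 and Asprv1 (0.83) were highest in RepI and lowest in RepL, while Elovl4 (-1.42) was highest in RepM.

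Among calmodulin genes, Calm2 had a log2 fold change of -0.36 and Calml3 of 0.18, and Calm5, which shares sequence with Calm4, was found in 61 cells at 9.05 to 42.9 CPM. Of the secreted suprabasal proteins, Dmkn, the neighbour of Krtdap, was at 1318 and 181 CPM in 38w and 253 and 229 in 38wUW (log2 fold change 1.90, edgeR adjusted p = 0.659), and Sbsn was at 0.67. Dmkn thus shared with Krtdap the highest value in RepI and the lowest in RepL. The 9 S100 genes of the complex had a median of 2.26, led by S100a6 (2.97), S100a10 (0.66) and S100a11 (2.26), and 2 did not overlap, both above. S100a6 was at 1430 and 91.9 CPM in 38w and 117 and 115 in 38wUW. S100a11 was at 713 and 84.0 against 89.7 and 110. Both were thus, like Dmkn, highest in RepI and lowest in RepL, while S100a10 was highest in RepI and lowest in RepM. For 5 suprabasal keratins the median was -0.36, with Krt10 at 0.26, Krt2 at 3.43 and Krt1 at -0.36, and 1 was above and 2 below. The 18 regulators of differentiation had a median of 0.09, led by Trp63 (0.29), Junb (-1.18) and Klf4 (-0.71), and 3 were above and 6 below. The 9 basal layer genes had a median of 1.14, led by Krt14 (3.46), Krt5 (2.08) and Dst (0.51), and 5 were above and 0 below. Beside these counts, 12.6% of all genes were above and 26.2% below, and the median of all genes was 0.12.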

How the data were processed

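Single cells were sorted into plates and sequenced with a modified Smart-seq2 protocol (oligo-dT priming, amplification by PCR, no molecular identifiers), so intervals and zero limits cover counting error only. The authors quantified reads with Salmon 0.13.1 against Ensembl 101 (GRCm38), and deposited these as estimated counts, 1 column a cell, 3.60% of them not whole. Depth is 11711 to 721564 reads per cell, and it limits what a share of cells can show.

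Estimated counts were summed per replicate tag, rounded and tested with edgeR 4.0.16 (TMM, filterByExpr, quasi-likelihood test, Benjamini-Hochberg adjustment over all genes, threshold 0.05), with DESeq2 1.42.0 as an alternative. The edgeR step was tested on simulated data with less spread between replicates than here (common biological coefficient of variation 0.713). That test does not show its power in these data. The labels do not say whether a replicate is a mouse or a pool, so p-values measure the spread between these samples. Cells were not taken as replicates. Shares used cells thinned to 20000 reads and an exact permutation test over replicates. Levels in cells are reads per 10000. Clusters used scanpy 1.11.5 (2000 variable genes, 20 components, 15 neighbours, Leiden resolution 1). A cluster was named if 3 or more markers of its best class were raised by a log2 fold of 0.5 and found in 25% of its cells, and if no other class had more markers among its top 10 genes. Likeness is Spearman's rho of log2(reads per 10000 + 1), each gene centred on its plate mean. No doublet caller was run, since wells were to hold single cells. The genes named are the 4 members, the 3 most abundant others of each list, the 5 most like each member and 14 marker genes, except for an item that is not reported here. The members and lists were chosen with earlier results of these data known. Alternatives were tool, scaling, count filter, left-out replicates and plates, plates as units with a batch block, cell weights, thinning, cells with a name suffix and clustering settings.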

Additional observations from a re-analysis of the deposited data

How the results depend on the processing

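Of 137 alternative values, 9 changed direction (of which Sprr1a without RepI passed the threshold), 6 passed it in the same direction and 8 moved, and the others kept direction and side of the threshold. Leaving out 1 replicate gave 0 to 1215 genes called by edgeR (1215 without RepL, 169 without RepI), and log2 fold changes of -4.24 to 2.05 for Sprr1a, -0.67 to 2.82 for Krtdap, -0.94 to 2.32 for Calm4 and -10.71 to -7.90 for Hrnr. The difference in the share of cells with Sprr1a then ranged from -17.3 to 3.58 percentage points. Without plate C114 the log2 fold change was -5.14 for Sprr1a and -1.10 for Calm4. With plates as units, Sprr1a was at -2.98 with the batch tag as a block and -3.41 with the alternative tag, and these fits called 1 and 4 genes. DESeq2 called 70 genes, Hrnr among them (log2 fold change -9.25), and edgeR without the count filter called 1. The cause of these changes was not tested. For Hrnr the adjusted p ranged from 0.000965 to 0.999 over its alternatives, and its fitted fold change is no measured size, since 38w was at 0. The same direction in every alternative was found for the shares of cells with Krtdap, Calm4 and Hrnr. The design cannot give a p under 0.333 there, and no background over all genes was computed for these shares. The groups share no replicate tag, so no block by replicate was fitted, and the blocks tried were the batch tags above.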
